A study of Mus musculus with 18 samples.

Results

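The 40 genes described here encode the transporters and enzymes that carry glucose through glycolysis to pyruvate and lactate, the gate into the mitochondrion at pyruvate dehydrogenase, and the pentose phosphate pathway. They were chosen as a fixed list of gene symbols, and all 40 of 40 were found among the 24485 genes listed in each of 18 RNA-seq libraries. By role they were 3 glucose transporters, 10 enzymes of upper glycolysis, 3 PFKFB enzymes, 7 enzymes of lower glycolysis, 4 genes of lactate formation and transport, 6 genes of the pyruvate dehydrogenase step, 3 of the oxidative and 4 of the non-oxidative pentose phosphate branch. A filter of at least 10 counts in at least 3 libraries was passed by 39 of them. Pdk4, the remaining member, had normalised counts of 0 to 3.46.

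All libraries came from Il10-/- bone marrow-derived macrophages (BMDMs), grown from the marrow of 12-week-old male mice on the C57BL/6J background in L929-conditioned medium, and no wild-type library was analysed here. There were 6 groups of 3 libraries. Cells were pretreated for 12 hours with 500 nM (+)-JQ1, with 10 ng/mL recombinant IL-10 or with neither, and then received 50 ng/mL lipopolysaccharide (LPS) or PBS for 4 hours, so that each culture lasted 16 hours in all. The groups were Unstimulated (PBS, no pretreatment), JQ1, IL-10, LPS, LPS+JQ1 and LPS+IL-10. (+)-JQ1 is an inhibitor of the bromodomain and extra-terminal (BET) proteins, which bind acetylated histones, and LPS is a component of the outer membrane of Gram-negative bacteria that signals through Toll-like receptor 4. The labels describe the cells without pretreatment as untreated. The study's methods name a vehicle control for the pretreatment and, as an additional control, cells given neither treatment nor stimulus, and the labels do not say whether the LPS group had vehicle. The knockout removes the cells' own IL-10, a cytokine that restrains inflammation. BMDMs are an in vitro model, and the knockout was carried by every group, the controls included.

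The libraries held 6781952 to 28289498 assigned reads. Normalised counts of Il10 itself ranged from 27 to 177 and were above 0 in every library. The tables count whole genes and do not show which part of Il10 was read, so this is no check of the deletion. Every one of 8 macrophage markers was above 0 TPM in all libraries. TPM are reads corrected for gene length and scaled to the same total in each library. Ly6g, which defines neutrophils, was listed at 0 in all 18. Elane, Mpo and Camp were at 0 in 17, 16 and 6 libraries. The neutrophil markers S100a8 (2.91 to 37.61 TPM), S100a9 (3.85 to 40.85) and Ngp (0.7 to 8.15) were above 0 in every library. The summed TPM of 7 neutrophil markers was 23.2 to 84.2 in Unstimulated, 7.46 to 16.9 in JQ1 and 25.02 to 35.64 in IL-10 libraries. It was 35.53 to 50.78 in LPS, 13 to 29.57 in LPS+JQ1 and 30.67 to 69.02 in LPS+IL-10 libraries. The 3 cycling-cell markers summed to 38.3 to 51.3 TPM in Unstimulated, 14.7 to 16.0 in JQ1 and 36.65 to 47.6 in IL-10 libraries. Their sum was 55.2 to 73.8 in LPS, 9.61 to 10.3 in LPS+JQ1 and 40.7 to 54.5 in LPS+IL-10 libraries. It was thus lower in both groups with JQ1 and higher with LPS alone than at rest, without overlap. In knockout BMDMs cultured with JQ1, the paper reported by flow cytometry no effect on viability or on cell cycle progression, the latter by BrdU incorporation. The methods of that assay name no LPS. The part of neutrophils and cycling cells in the results with JQ1 or LPS was not tested here. In bulk cultures, fewer cells of a type and less RNA per cell cannot be told apart.

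Glucose enters the macrophage through SLC2A transporters and is trapped by hexokinases. It then passes the phosphofructokinase step, the main point of control, whose activator fructose 2,6-bisphosphate is made and broken down by the PFKFB enzymes. Activated macrophages are known for high rates of glycolysis with release of lactate through monocarboxylate transporters, and for use of the pentose phosphate pathway as a source of NADPH. The pyruvate dehydrogenase kinases hold back the entry of pyruvate into the mitochondrion. Transcript levels, which were measured here, are not enzyme activities or metabolic fluxes.

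The start-site windows of the genes on which the results below turn are shown because several members moved together and because short sequences bound by factors of the hypoxia-inducible family (ACGTG and GCGTG) are a usual point of interest for this pathway. They are RefSeq windows of 300 bases, 250 before and 50 after an annotated start, on GRCm38.p6, while the reads were counted on mm9. Capitals mark ACGTG or GCGTG on either strand, so that CACGT and CACGC are their reverse complements, and where ACGTG and CACGT overlap the joined letters CACGTG are in capitals. Pfkfb3 has windows at chr2:11553880-11554179 and chr2:11502041-11502340, Slc2a6 at chr2:27027949-27028248 and Hk2 at chr6:82774405-82774704, all on the minus strand. Pfkfb4 has its window at chr9:108991652-108991951 on the plus strand.
Pfkfb3, window 1: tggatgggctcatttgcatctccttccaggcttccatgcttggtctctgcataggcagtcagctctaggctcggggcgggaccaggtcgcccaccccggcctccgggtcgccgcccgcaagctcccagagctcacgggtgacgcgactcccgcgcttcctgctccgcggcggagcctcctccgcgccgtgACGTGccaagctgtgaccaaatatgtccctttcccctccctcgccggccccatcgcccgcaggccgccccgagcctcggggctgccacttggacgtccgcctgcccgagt
Pfkfb3, window 2: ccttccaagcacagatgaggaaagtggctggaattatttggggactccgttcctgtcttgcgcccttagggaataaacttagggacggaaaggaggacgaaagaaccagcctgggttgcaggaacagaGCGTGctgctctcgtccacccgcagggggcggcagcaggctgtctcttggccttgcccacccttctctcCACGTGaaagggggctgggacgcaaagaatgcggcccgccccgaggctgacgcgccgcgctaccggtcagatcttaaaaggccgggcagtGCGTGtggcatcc
Slc2a6: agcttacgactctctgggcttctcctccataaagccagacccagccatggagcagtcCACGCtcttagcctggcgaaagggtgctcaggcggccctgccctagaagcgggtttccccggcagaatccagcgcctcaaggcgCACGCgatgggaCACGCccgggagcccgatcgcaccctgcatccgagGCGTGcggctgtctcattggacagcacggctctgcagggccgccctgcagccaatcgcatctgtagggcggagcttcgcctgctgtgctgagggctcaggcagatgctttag
Hk2: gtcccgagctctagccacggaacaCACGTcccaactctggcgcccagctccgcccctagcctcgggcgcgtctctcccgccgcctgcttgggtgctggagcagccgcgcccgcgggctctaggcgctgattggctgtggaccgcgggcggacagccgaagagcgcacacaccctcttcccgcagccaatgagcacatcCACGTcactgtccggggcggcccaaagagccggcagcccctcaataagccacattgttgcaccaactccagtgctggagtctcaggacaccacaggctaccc
Pfkfb4: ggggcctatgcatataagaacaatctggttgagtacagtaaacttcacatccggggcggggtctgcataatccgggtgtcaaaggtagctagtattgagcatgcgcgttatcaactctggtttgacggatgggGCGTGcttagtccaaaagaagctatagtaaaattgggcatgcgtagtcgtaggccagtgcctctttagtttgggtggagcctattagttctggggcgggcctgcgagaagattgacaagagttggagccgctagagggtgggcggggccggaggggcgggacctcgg

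Windows were found for 39 of the 40 members, 56 in all. ACGTG was held by 24 of these 56 windows (42.9%) and by 19.6% of all 32851 windows of the same length, searched on both strands. GCGTG was held by 34 of 56 (60.7%) against 32.4%, and the longer CACGTG, which contains ACGTG, by 6 of 56 (10.7%) against 7.15%. The second Pfkfb3 window held ACGTG on both strands through 1 CACGTG and GCGTG at 2 places, whereas the Slc2a6 window held GCGTG at 4 places and no ACGTG. Pfkfb4, which moved opposite to Pfkfb3 with LPS, held GCGTG at 1 place. The matches describe letters only, and several windows belong to the same gene. Both ACGTG and GCGTG contain CG, and the windows of all genes were not matched to those of the members for base composition or expression. The differences in share were therefore not tested as a trait of the module.

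On mm9, by the GENCODE annotation, Slc2a6 lies at chr2:26876883-26883518, Pfkfb3 at chr2:11393057-11423728, Pfkfb2 at chr1:132585620-132625830, Hk2 at chr6:82675019-82724448, Pfkp at chr13:6579014-6648023 and Pdk2 at chr11:94887572-94902668. Counts are sums over whole genes. Exons of 11 members overlap exons of a gene on the opposite strand in that annotation (Slc2a1, Hk1, Hk3, Gpi1, Pfkp, Tpi1, Pfkfb2, Slc16a3, Pdha1, G6pdx and Rpe). Since reads were counted with default settings, which do not use strand, reads of such partners cannot be told apart. Exons of Pgls and Tkt overlap exons of another gene on the same strand. Pkm had no entry of that name in the annotation, so only 39 members were checked for overlap. In 7 members (Pfkp, Aldoa, Pfkfb2, Gapdh, Eno1, Pdha1 and Rpe) the count was not whole in at least 1 library, which marks reads shared with another gene, and Gapdh, Eno1, Pgk1, Ldha, Aldoa, Tpi1, Pgam1, Pkm and G6pdx also have retrocopies elsewhere in the genome, so their levels are uncertain to that extent.

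At rest the module was abundant. The 40 members together took 7081 ± 146 TPM (SD, n = 3) in Unstimulated cells. Aldoa (aldolase A) and Pkm (pyruvate kinase) were the most abundant at 1147 and 1051 TPM on average, followed by the pentose phosphate enzyme transaldolase, Taldo1, at 843 TPM. The regulatory genes were far lower, with 22.4 TPM for Pfkfb4, 13.8 for Pfkfb3, 11.1 for Slc2a6 and 3.82 for Slc16a1. The summed TPM was 7217 ± 130 with JQ1 and 7231 ± 260 with IL-10. It was 5331 ± 225 in LPS, 6613 ± 294 in LPS+JQ1 and 6605 ± 478 in LPS+IL-10 libraries, so that the LPS range of 5095 to 5543 TPM lay below those of all other groups. TPM is relative to all other transcripts of a library, and LPS moved this frame of reference. Over 12251 expressed genes, the median log2 change from Unstimulated to LPS was -0.07 with the DESeq2 size factors used below and -0.997 with scaling to total counts. Small changes of a member therefore depend on the scaling. Called directions that reversed are named with the comparison or in the closing sections.

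The first question was how LPS changed the module in cells without pretreatment. LPS raised 2 glucose transporters, all 3 hexokinases and part of the phosphofructokinase step, with Slc2a6, Pfkfb3, Pfkp, Hk2 and Slc2a1 furthest, and lowered Pdk2, Pfkfb2, Pfkfb4, Slc2a3 and Pfkm. By the DESeq2 Wald test at an adjusted p under 0.05, 19 members rose and 12 fell of 40 tested, 31 in all, or 77.5%, against 66.3% of all 14591 genes tested. The share of all genes called higher was 32.4% and lower 33.8%. Here and below, all genes tested were not matched to the members for expression level. A difference between the 2 shares was therefore not tested as a trait of the module. The median log2 change of the members was 0.12, beside -0.07 over all genes tested. With total-count scaling 11 members were higher and 25 lower, and with TPM 12 and 24. The median log2 change of all expressed genes was itself -0.997 with total-count scaling and -0.70 with TPM. Shares of all genes called were not computed under other scalings, here or in the comparisons below. Whether such splits, or calls kept under every scaling, are particular to the module was therefore not tested. Under every scaling tried, 11 members were called higher (Slc2a1, Slc2a6, Hk1, Hk2, Hk3, Pfkl, Pfkp, Pfkfb3, Pgk1, Slc16a1 and Rpe) and 12 lower (Slc2a3, Gpi1, Pfkm, Pfkfb2, Pfkfb4, Eno3, Ldhb, Pdk2, Pdha1, G6pdx, Pgls and Taldo1). Aldoa, Gapdh, Ldha, Pdk3, Pdhb and Pgd were called higher here but had lower values with total-count scaling.

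**Figure D1:**
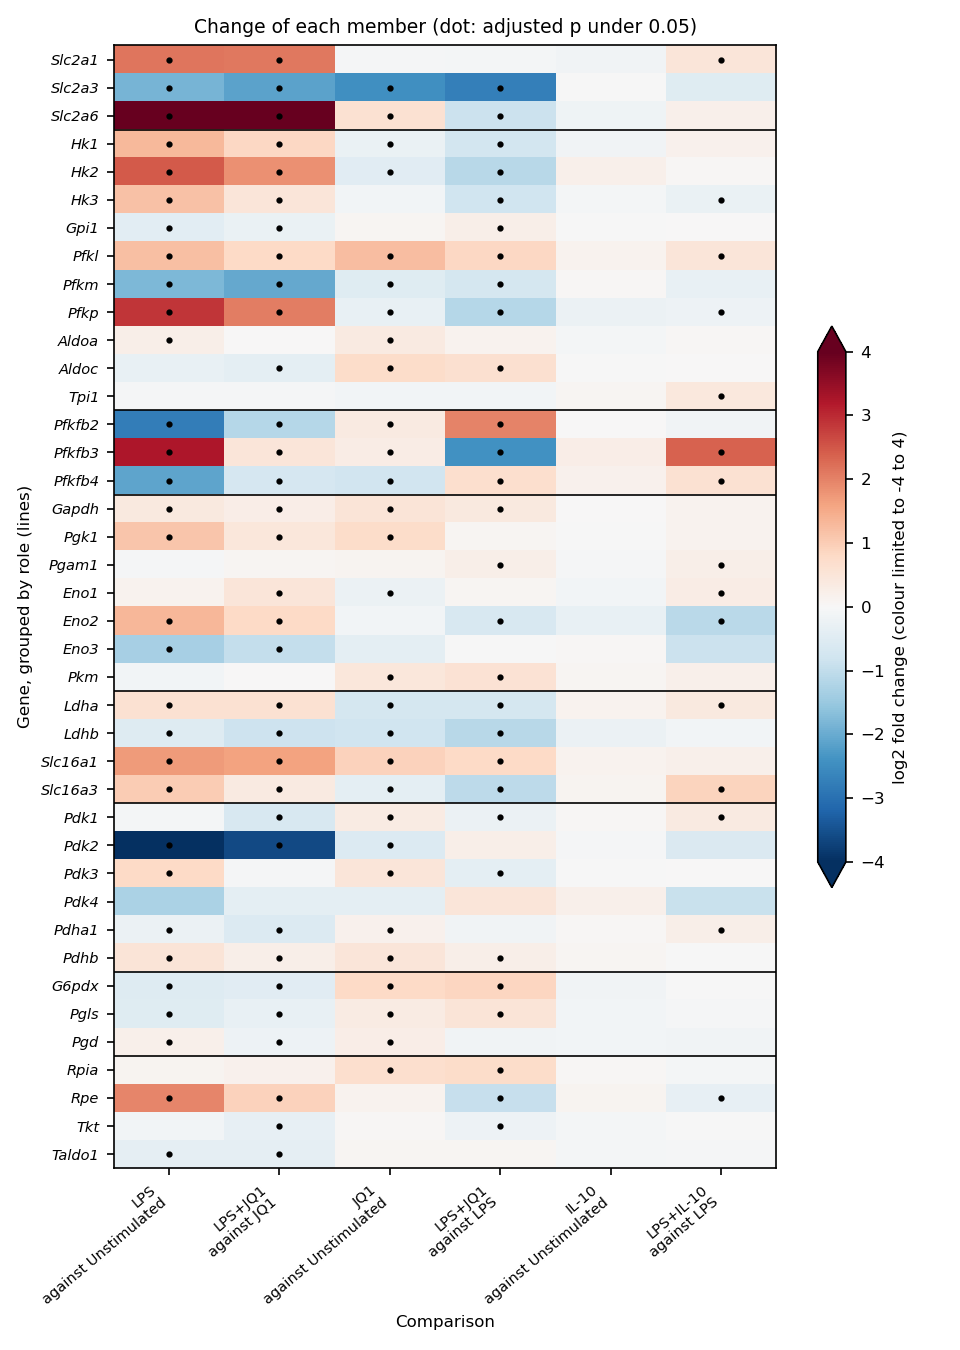
Log2 fold change of each of the 40 members (rows, grouped by role) in 6 comparisons (columns), from the DESeq2 fit over 18 libraries, with red for higher and blue for lower and a dot where the adjusted p was under 0.05. Between the 2 columns for LPS, Pfkfb3 changed by 3.22 without and 0.49 with JQ1 and Pfkfb2 by -2.76 and -1.13, and the column for IL-10 alone holds no dot.

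Among the transporters, Slc2a6 (GLUT6) had normalised counts of 241, 85 and 141 in the Unstimulated libraries and 11659, 11794 and 10349 after LPS. The groups were far apart, and the resting values differed among themselves by more than those after LPS, in proportion. The log2 change was 6.14 ± 0.19 (SE), or 70.6-fold, with an adjusted p of 3.35e-222. Slc2a1 (GLUT1), the main basal glucose transporter of many cells, went from 605, 521 and 461 to 2399, 2547 and 2069, a log2 change of 2.15 ± 0.11. Slc2a3 (GLUT3) had 42, 41 and 52 at rest and 6, 9 and 22 after LPS. It fell by 1.86 on the log2 scale at this low level, where the LPS libraries varied more among themselves than those at rest.

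The hexokinases, which phosphorylate glucose, all rose. Hk2 had 1113, 1181 and 986 normalised counts at rest and 5959, 6228 and 5811 after LPS, a log2 change of 2.46 ± 0.08. Hk1 went from 1362, 1268 and 1367 to 3478, 3397 and 2931 (log2 change 1.29), and Hk3 from 3530, 3344 and 3210 to 7615, 7855 and 7081 (1.16). None of these 3 genes had overlapping groups. The phosphofructokinase isoforms moved apart. Pfkp, the platelet-type isoform, rose from 709, 648 and 768 to 5221, 5293 and 5123 (2.87 ± 0.07), Pfkl, the liver-type, from 659, 704 and 582 to 1584, 1626 and 1267 (1.21 ± 0.13), and Pfkm, the muscle-type, went from 140, 186 and 194 to 48, 49 and 52 and so fell by 1.81 on the log2 scale.

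The PFKFB enzymes, which set the level of fructose 2,6-bisphosphate, split most sharply. Pfkfb3, the isoform that strongly favours its synthesis, had 531, 446 and 449 normalised counts at rest and 4790, 4291 and 4255 after LPS (log2 change 3.22 ± 0.11). Pfkfb2 went the other way, from 295, 347 and 308 to 47, 40 and 53, and fell by 2.76 on the log2 scale. Pfkfb4 fell by 2.11, from 519, 521 and 513 to 106, 130 and 122.

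In lower glycolysis, Pgk1 (phosphoglycerate kinase) rose from 2263, 2282 and 2523 to 4814, 5031 and 5556 (log2 change 1.12). The minor enolases went in opposite directions. Eno2 rose from 48, 51 and 53 to 136, 122 and 122 (1.32, but 0.39 and no call with total-count scaling), and Eno3 went from 36, 27 and 32 to 16, 12 and 11 and fell by 1.33. The main enolase Eno1, with 0.14, Pgam1, with -0.06, and Pkm, with -0.10, did not pass the test. On the TPM scale Pkm had 544 to 604 after LPS against 1018 to 1100 at rest. Pgam1 had 164 to 202 against 311 to 360, and Eno1 272 to 357 against 492 to 518. None of these groups overlapped, so whether the genes fell depended on the scaling. The median log2 change of expressed genes with TPM was -0.70. For lactate, the transporter Slc16a1 (MCT1) rose from 113, 115 and 125 to 383, 376 and 413 (1.72 ± 0.11). Slc16a3 (MCT4), known for lactate export, had 483, 475 and 447 at rest and 845, 1103 and 884 after LPS, a log2 change of 1.01 that shrank to 0.09 with total-count scaling, where it was not called. Ldhb, the lactate dehydrogenase subunit more typical of heart, went from 177, 244 and 217 to 133, 164 and 147 and fell by 0.50.

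At the pyruvate dehydrogenase step Pdk2 fell from 226, 299 and 244 to 11, 14 and 10, which was 21.1-fold lower (log2 change -4.40 ± 0.30). In the pentose phosphate pathway the oxidative enzymes G6pdx (glucose 6-phosphate dehydrogenase) and Pgls (6-phosphogluconolactonase) fell by 0.52 and 0.48. The non-oxidative epimerase Rpe rose from 248, 196 and 239 to 918, 796 and 988 (1.96 ± 0.12), Taldo1 fell by 0.36, and Tkt (transketolase) and Rpia had changes of -0.10 and 0.10 that did not pass the test. On the TPM scale Tkt had 116 to 130 after LPS against 216 to 232 at rest, and Rpia 5.57 to 5.81 against 7.04 to 10.7.

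**Figure D2:**
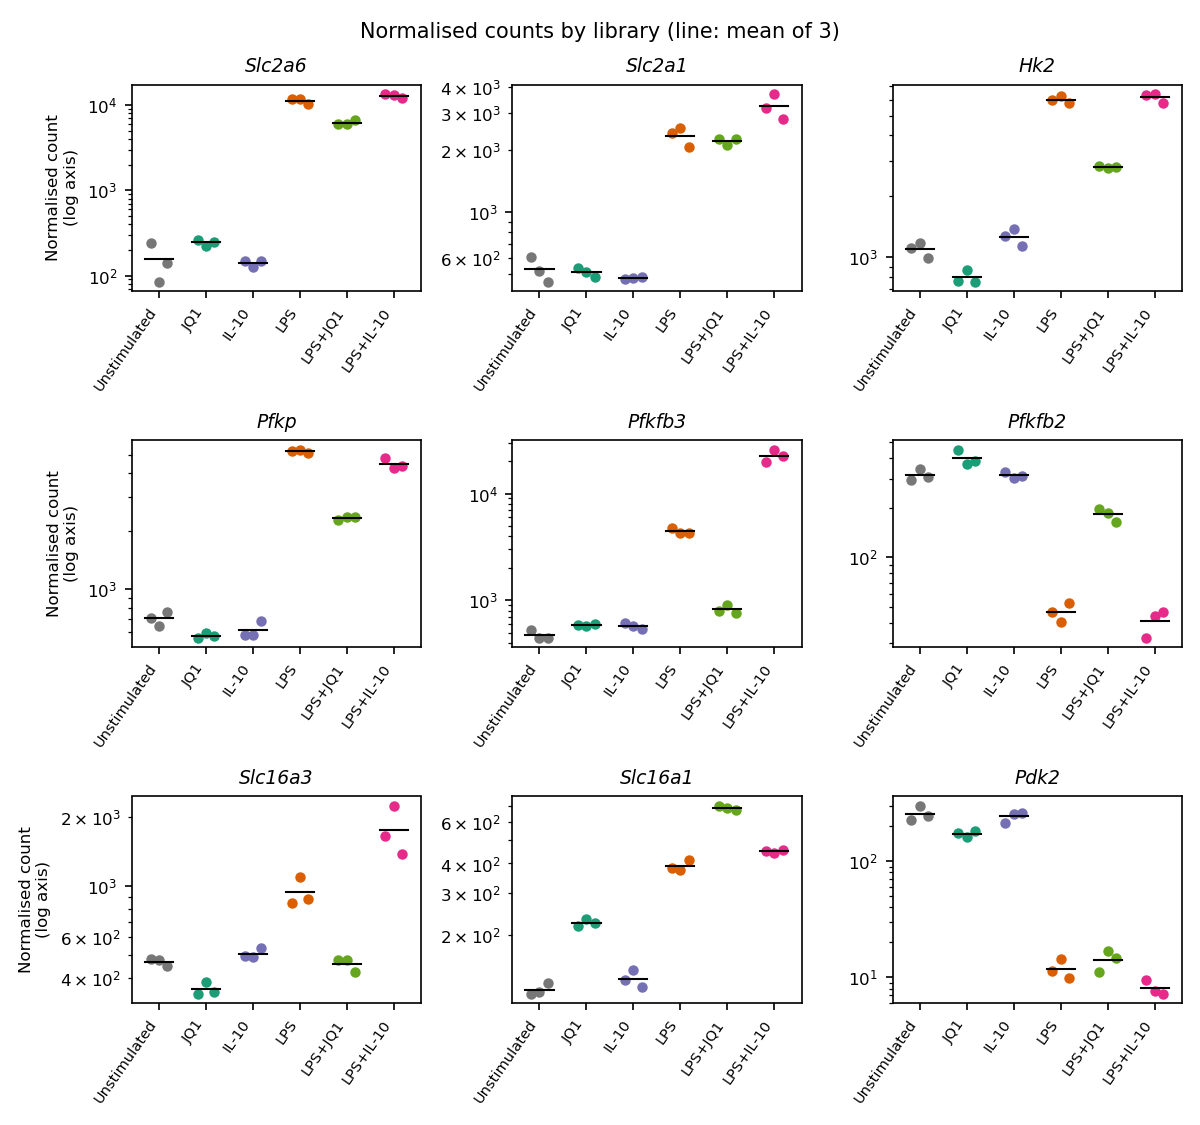
Normalised counts (log axis, its range set separately for each gene) of 9 members in each of the 18 libraries, by group, with a line at the mean of 3. For Pfkfb3 the LPS+JQ1 libraries, at 767 to 905, lie near those without LPS, and the LPS+IL-10 libraries, at 19667 to 25667, lie above all others.

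The second question was whether JQ1 changed the module in cells without LPS. JQ1 raised Pfkl, Slc16a1 and G6pdx and lowered Slc2a3, Pfkfb4, Ldha and Ldhb, with changes mostly well under those of LPS. In all 18 members rose and 11 fell of 40 tested, 29 or 72.5%, against 44.7% of all genes tested, of which 21.4% were higher and 23.2% lower. The median of the members was 0.09, beside 0.00 over all genes. Total-count scaling gave 9 higher and 13 lower and TPM 9 and 15, and without replicate 3 there were 19 calls. The called members under every scaling were 9 higher (Pfkl, Aldoc, Gapdh, Pgk1, Pkm, Slc16a1, Pdhb, G6pdx and Rpia) and 11 lower (Slc2a3, Hk1, Hk2, Pfkm, Pfkp, Pfkfb4, Eno1, Ldha, Ldhb, Slc16a3 and Pdk2).

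Pfkl had 1451, 1607 and 1489 normalised counts with JQ1, against 659, 704 and 582 without, a log2 change of 1.23 ± 0.13. Slc16a1 had 218, 235 and 225 and was 0.93 higher. G6pdx, the first and rate-limiting enzyme of the pentose phosphate pathway, went from 3041, 3269 and 3181 to 5532, 5661 and 5339 (0.80 ± 0.06), and the next enzymes of the branch, Pgls and Pgd, had changes of 0.32 and 0.27 that were called here but not under every scaling. Slc2a3 was the member that fell furthest, with 9, 9 and 7 normalised counts against 42, 41 and 52 (log2 change -2.44 ± 0.42). Ldha, which makes lactate from pyruvate, went from 3823, 3592 and 3893 to 2226, 2309 and 2449 and fell by 0.70. Ldhb fell by 0.79 and Pfkfb4 by 0.76, the latter to 324, 273 and 316. The groups did not overlap for any gene of this paragraph.

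The third question was how JQ1 changed the module in the presence of LPS. LPS+JQ1 cells had less Pfkfb3, Pfkp, Hk2, Slc16a3 and Ldhb and more Pfkfb2, G6pdx, Pfkl and Slc16a1 than LPS cells, while Slc2a1 was not called different. Of 40 members tested, 13 were higher and 16 lower, 29 in all, or 72.5%, against 57.6% of all genes tested, with 24.5% higher and 33.1% lower. The median of the members was -0.05, beside -0.11 over all genes tested. With total-count scaling the split was 22 higher and 11 lower, and with TPM 18 and 11. All 13 members called higher kept that call under every scaling, as did 10 of those called lower (Slc2a6, Hk1, Hk2, Hk3, Pfkp, Pfkfb3, Ldha, Ldhb, Slc16a3 and Rpe). Pdk1 and Tkt, called lower here with changes of -0.23 and -0.19, had values above 0 under total-count scaling and with TPM.

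Pfkfb3 had 800, 905 and 767 normalised counts in LPS+JQ1 libraries, against 4790, 4291 and 4255 with LPS alone, which was 5.39-fold lower (log2 change -2.43 ± 0.10, adjusted p of 1.19e-120). Hk2, at 2823, 2774 and 2787, was 2.15-fold lower, and Pfkp, at 2305, 2387 and 2388, was 2.21-fold lower. The LPS+JQ1 values of Hk2 and Pfkp lay below all LPS values and above all values without LPS. Slc2a6, at 6013, 5919 and 6722, had a log2 change of -0.86 and likewise lay between. Hk1 and Hk3 had log2 changes of -0.74 and -0.79, and Rpe, at 497, 451 and 483, of -0.92. Slc2a1, by contrast, had 2242, 2116 and 2261 against 2399, 2547 and 2069, groups that overlapped, with a log2 change of -0.08 and a 95% interval of -0.30 to 0.13. On the TPM scale Slc2a1 was higher in LPS+JQ1 without overlap, at 89.0 to 93.8 against 75.2 to 84.3 with LPS alone. Its direction thus depended on the scaling.

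Of the lactate genes, Slc16a3 had 479, 479 and 423 normalised counts in LPS+JQ1 libraries and was 2.05-fold lower than with LPS alone. Ldha had a log2 change of -0.71, with 3318, 3598 and 3657 against 5589, 5949 and 5751, and Ldhb, at 68, 72 and 68, of -1.10. Slc16a1 was higher by 0.81, at 698, 685 and 668, the highest level of any group. Pfkfb2, at 198, 187 and 164, was 3.96-fold higher than with LPS alone but still below every library without LPS. Pfkfb4 was higher by 0.67, at 188, 185 and 199, and G6pdx, at 4023, 4123 and 4001, by 0.87 ± 0.07. Pdk2, at 11, 17 and 15, had a log2 change of 0.24 that was not called, so the low level it had after LPS was not detectably altered at these counts. Slc2a3 was at the limit of detection. Its LPS+JQ1 libraries held 5 counts in total against 31 with LPS, a ratio of 6.64 with a counting interval of 2.56 to 21.9 (95%), and the call (log2 change -2.73) was lost without replicate 3, where the change was -1.82, and with TPM. Pfkm, at 34, 24 and 32, and Eno2, at 95, 73 and 75, were called lower with -0.72 and -0.64 but not with total-count scaling.

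LPS in JQ1-pretreated cells was compared with JQ1 alone, which shares no library with the comparison of LPS and Unstimulated. Of 39 members tested, 17 were higher and 16 lower, 33 in all, or 84.6%, against 60.5% of all genes tested, and the split was 9 and 21 with total-count scaling and 11 and 18 with TPM. Of the 19 members that LPS raised without JQ1, 16 of 19 were also among the 17 raised with it, and 12 of 12 lowered without it were among the 16 lowered with it. Pgd was the only one called in opposite directions, with 0.20 and -0.21, and Aldoa and Pdk3 were not called with JQ1. Across the 39 members with a mean of at least 10 normalised counts, the log2 changes had a Pearson r of 0.937 and a Spearman rho of 0.949, given as a description over genes that share libraries. The change was larger in size without JQ1 for 27 of these 39 members. LPS called 66.3% of all genes tested without JQ1 and 60.5% with it. The overlap of calls, the correlations and the sizes were not computed over all genes, so none was tested as a trait of the module. Slc2a6 still rose by 4.67 with JQ1, Slc2a1 by 2.10, Pfkp by 2.03, Hk2 by 1.81 and Slc16a1 by 1.60. Pfkfb3 rose by only 0.49, from 585, 571 and 601 to 800, 905 and 767, against 3.22 without JQ1.

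Whether JQ1 acted differently with and without LPS was tested as an interaction. It was called for 16 of 39 members tested, 2 higher and 14 lower, or 41.0%, against 39.5% of all genes (16.8% higher and 22.6% lower), a share near that background. The direction depended on the scaling, with 4 higher and 12 lower with TMM factors, 19 and 4 with total-count scaling and 20 and 4 with TPM. Pfkfb2 (1.63) and Pfkfb4 (1.43) were called higher and Slc2a6 (-1.47), Pfkp (-0.83), Pfkfb3 (-2.73) and Rpe (-1.05) lower under every scaling. The comparisons of JQ1 with Unstimulated and of LPS+JQ1 with LPS share no library either. Between them 10 members were called higher in both, of 18 and 13, and 8 lower in both, of 11 and 16. Slc2a6, Pfkfb3, Pdk1 and Pdk3 were called higher without and lower with LPS, and Pfkfb4 lower without and higher with it. None of the 4 higher calls with JQ1 alone held under every scaling, and neither did the lower calls of Pdk1 and Pdk3 with LPS. The higher value of Slc2a6 (0.61) also lost its call without replicate 2 or 3, and the lower value of Pdk1 lost its call with the replicate block and turned to 0.15 with total-count scaling. The log2 changes had a Pearson r of 0.608 and a Spearman rho of 0.565 over 39 members. Of all genes tested, JQ1 called 44.7% without LPS and 57.6% with it. The overlap of calls and the correlations between these comparisons were likewise not computed over all genes.

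**Figure D3:**
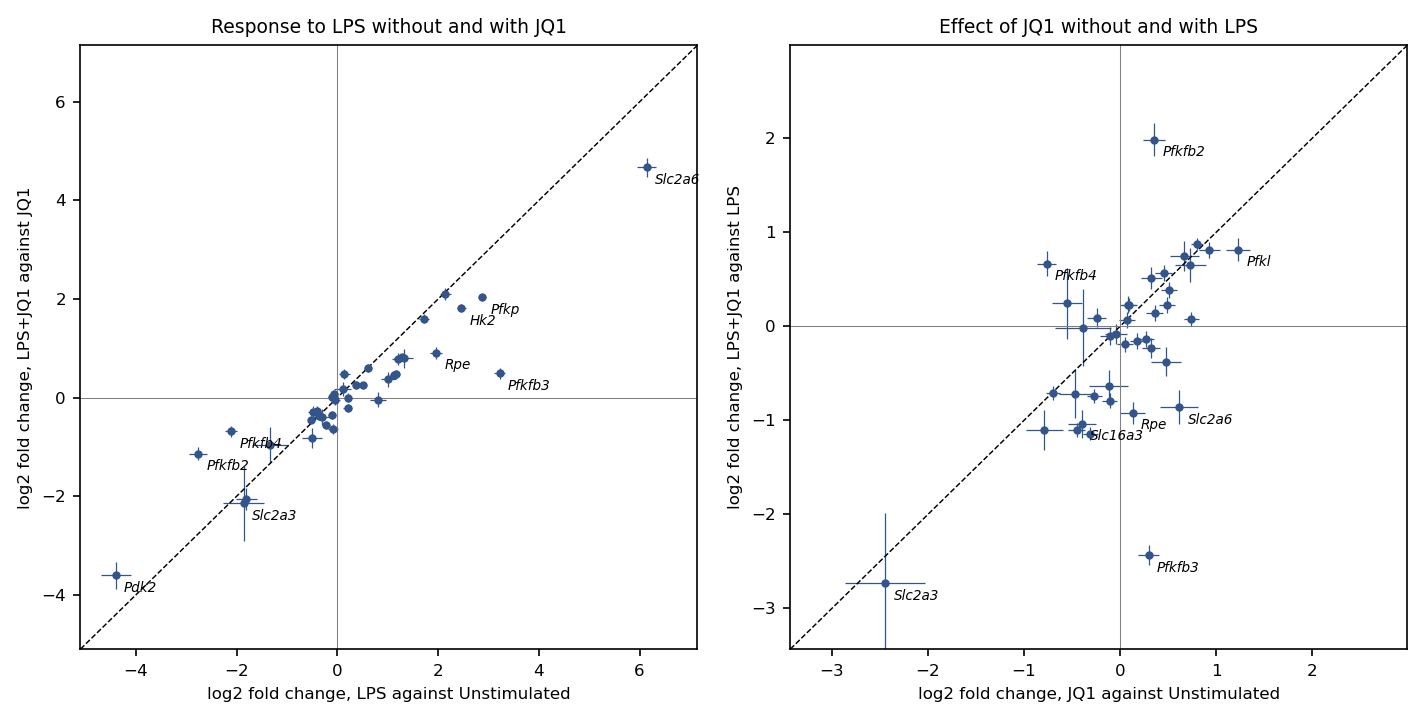
Log2 fold changes of 39 members, each a point with its standard errors and the dashed line marking equal values, for LPS without JQ1 (x) and with JQ1 (y) at left and for JQ1 without LPS (x) and with LPS (y) at right. At left most points lie near the line, with Pearson r 0.937, and Pfkfb3 lies well below it, and at right, with r 0.608, Pfkfb3 and Pfkfb2 lie far from it on opposite sides.

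IL-10 alone left the module without a called change. Of 37 members tested none passed an adjusted p of 0.05 by DESeq2, against 3.92% of all genes tested, and 0 passed by edgeR or limma. At an unadjusted p under 0.05 there were 5 (Hk2, Pfkp, Pfkfb3, Ldha and G6pdx), and log2 changes of members with a mean of at least 10 normalised counts ranged from -0.29 to 0.27. With the replicate block, which assumes that libraries of the same number share a mouse, Hk2 was called higher (log2 change 0.21, adjusted p = 0.0258). Pfkfb3 had 612, 572 and 537 normalised counts with IL-10, against 531, 446 and 449 without, with a 95% interval of the log2 difference of 0.06 to 0.48.

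In the presence of LPS, IL-10 raised Pfkfb3 further and also raised Slc16a3, Pfkfb4, Pfkl and Slc2a1, while Eno2 fell. Of 39 members tested, 11 were higher and 4 lower, 15 in all, or 38.5%, against 15.8% of all genes tested, of which 7.74% were higher and 8.09% lower. The median of the members was 0.02, beside -0.02 over all genes. The 11 higher (Slc2a1, Pfkl, Tpi1, Pfkfb3, Pfkfb4, Pgam1, Eno1, Ldha, Slc16a3, Pdk1 and Pdha1) kept the call under every scaling, and of the lower only Eno2 did. Total-count scaling gave 16 higher and 1 lower, and TPM 15 and 1. There were 8 calls with only the libraries of the groups compared in the fit, and 10, 6 and 8 without replicate 1, 2 and 3.

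Pfkfb3 had 19667, 25667 and 22705 normalised counts in LPS+IL-10 libraries, against 4790, 4291 and 4255 with LPS alone, 5.10-fold higher (log2 change 2.35 ± 0.10). This was the highest level of Pfkfb3 in any group, and its interaction with LPS was 2.08, so that IL-10 changed it more with LPS than without. The interaction with LPS was called for 3 of 39 members, all higher, or 7.69%, against 6.67% of all genes (3.60% higher and 3.07% lower), and the others were Slc16a3 (0.78) and Slc2a1 (0.61). Slc16a3 had 1666, 2245 and 1390 normalised counts against 845, 1103 and 884 with LPS alone (0.90 ± 0.14), and Slc2a1 3194, 3718 and 2826 against 2399, 2547 and 2069 (0.47). Neither pair of groups overlapped. Pfkfb4 had 175, 225 and 161 against 106, 130 and 122 (0.62), and Pfkl 2115, 2461 and 1670 against 1584, 1626 and 1267 (0.48). Ldha had 6929, 8388 and 7465 against 5589, 5949 and 5751 (0.40). Eno2, at 68, 61 and 53 against 136, 122 and 122, fell by 1.07. Hk2 had a log2 change of 0.04, with a 95% interval of -0.11 to 0.20, and Slc2a6 of 0.19, and neither was called.

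Set side by side during LPS, LPS+JQ1 and LPS+IL-10 cells differed in 26 of 40 members, 10 higher and 16 lower with JQ1, or 65.0%, against 55.6% of all genes tested. The split was 15 and 15 with TMM factors, 20 and 14 with total-count scaling and 17 and 13 with TPM. Pfkfb3 was 27.5-fold lower with JQ1 than with IL-10 (log2 change -4.78 ± 0.10). Lower with JQ1 too were Slc16a3 (log2 change -1.94), Hk2 (-1.15) and Ldha (-1.11), while Pfkfb2 (2.14) and G6pdx (0.88) were higher, all with no overlap between the groups.

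Levels of related genes can be compared within a library on the TPM scale, and their shares do not depend on the scaling between libraries. Shares are means ± SD of 3 libraries, and an exact permutation test of 3 against 3 cannot give a two-sided p below 0.1, the value reached by every difference named here between LPS and Unstimulated and between LPS+JQ1 and LPS. Pfkfb4 was the leading PFKFB transcript at rest with 51.0% ± 1.1, and Pfkfb3 held 31.4% ± 2.4. Pfkfb3 held 95.2% after LPS, 63.3% in LPS+JQ1 and 98.6% in LPS+IL-10. The summed TPM of the 3 PFKFB genes was 43.9 ± 1.5 in Unstimulated, 77.2 ± 3.2 in LPS, 26.8 ± 2.5 in LPS+JQ1 and 412 ± 72 in LPS+IL-10 libraries.

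Among the phosphofructokinases Pfkl and Pfkp held like shares at rest, 42.5% and 42.6%. Pfkp held 75.5% after LPS and 44.9% in LPS+JQ1, where Pfkl led with 54.3%, and with JQ1 alone Pfkl held 68.6%. Slc2a6 went from 24.6% ± 8.0 of the 3 glucose transporters to 85.5% after LPS and 77.5% in LPS+JQ1, so that Slc2a1 led at rest and Slc2a6 in every group with LPS. Hk3 led the hexokinases in all 6 groups, with 67.3% at rest and 56.2% after LPS, while Hk2 rose from 12.4% to 25.3%. Slc16a1 made up 12.0% of the pair of monocarboxylate transporters at rest, 25.5% after JQ1, 18.4% after LPS, 44.5% in the LPS+JQ1 and 12.4% in the LPS+IL-10 group. Pdk2, a kinase of pyruvate dehydrogenase, held 47.9% of its family at rest and 3.38% after LPS, when Pdk3 held 52.0%. The order of the kinases depended on the scale, since from expected counts, not divided by length, Pdk1 led at rest with 53.7%, against 33.7% for Pdk2, and after LPS with 68.6%, against 29.1% for Pdk3. That of the monocarboxylate transporters in LPS+JQ1 did too, since from expected counts Slc16a1 held 59.8% and Slc16a3 40.2%.

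**Figure D4:**
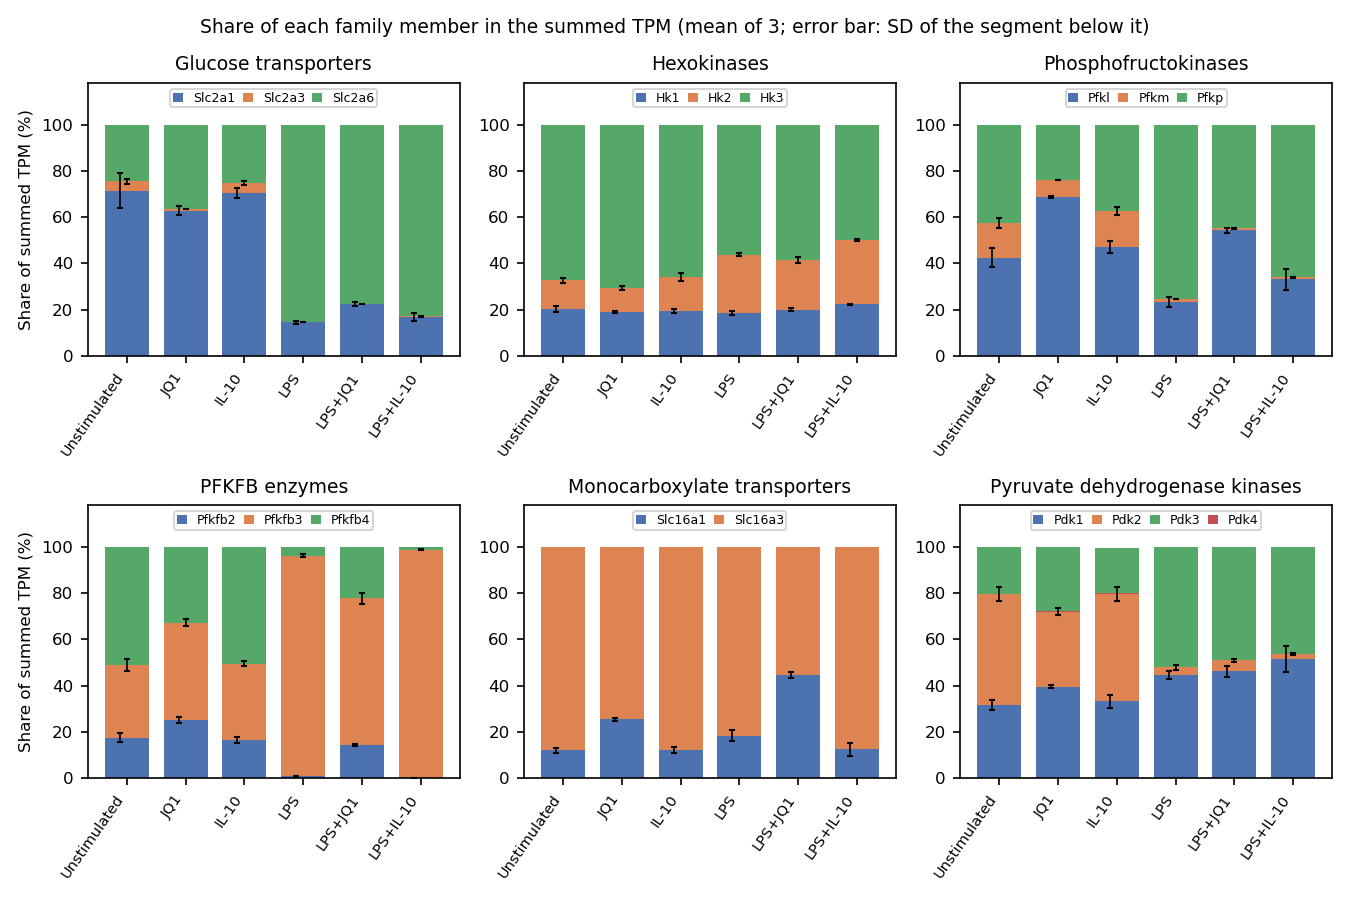
Share of each gene in the summed TPM of its family (vertical axis, percent) in the 6 groups, as stacked means of 3 libraries with an error bar of 1 SD for each segment but the top ones. In the panel of pyruvate dehydrogenase kinases the very small Pdk4 segment starts at the base of the Pdk3 segment, and neither has an error bar. The Pfkfb3 segment grows from 31.4% in Unstimulated to 95.2% in LPS and is 63.3% in LPS+JQ1, and Pfkp gives way to Pfkl in both groups with JQ1.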

How the data were processed

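The authors used STAR to align paired-end reads of stranded, rRNA-depleted libraries to mm9 and took gene levels from RSEM 1.2.31, both under default settings. The deposited tables give estimated counts (expected counts, 5.40% to 6.63% of values not whole) and TPM, per the file headers, for 24485 genes, and FPKM was not used here. Totals ranged from 6781952 to 28289498 counts, so that a count of 3, the floor, was 0.106 to 0.442 CPM (counts scaled to the library total). Replicates differed beyond sampling noise in all 18 pairs (chi-square per degree of freedom 4.14 to 30.5), and intervals of counts cover counting error only.

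Expected counts were rounded and fitted with the DESeq2 1.42.0 Wald test in R 4.3.3 to the 18 libraries together, with a term for the group alone. A call is a Benjamini-Hochberg adjusted p under 0.05 over all genes tested, and genes removed by independent filtering count as not tested. Normalised counts are counts divided by DESeq2 size factors. Alternatives were edgeR 4.0.16 (quasi-likelihood), limma 3.58.1 on log2(TPM + 1) for genes with TPM of at least 1 in 3 libraries, TMM and total-count scaling, filters, lane as a covariate, the replicate block, and each replicate left out. The fit was tested on simulated data, in which 200 of 11209 genes were changed, evenly up and down. Means came from the Unstimulated libraries and the spread was the same for all genes. With so few genes changed, the simulation does not test the scaling between libraries. In the single simulated set first used, DESeq2 made more false calls than the limit set for it. The check was then widened to 5 sets with the fit unchanged, and their pooled calls met the limit, at a share still above the nominal rate. edgeR stayed under the nominal rate.

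The series' design text calls the samples of the conditions biologically matched and the methods name 3 knockout mice, but neither ties a replicate number to a mouse. The block assumes that tie. Deviations of same-numbered libraries correlated at 0.10 to 0.15 between LPS and Unstimulated, -0.13 to 0.10 between LPS+JQ1 and LPS and 0.20 to 0.52 between LPS+IL-10 and LPS, and were over 0.1 in every pair only for the latter and for IL-10 against Unstimulated (0.11 to 0.27). Replicate 1 was sequenced on lane 7 and replicate 3 on lane 8, while replicate 2 was on lane 7 without LPS and lane 8 with it.

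The members, roles and lists were chosen with earlier results of these data known. Members with a mean of at least 10 normalised counts, an adjusted p under 0.05 and an absolute log2 change of at least 1 in LPS, JQ1 or IL-10 against Unstimulated, or in LPS+JQ1 or LPS+IL-10 against LPS, are described in full, which were 20 of 40, and others by counts and examples.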

Additional observations from a re-analysis of the deposited data

Results flagged for a closer look

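Members whose response to JQ1 differed with and without LPS, by the interaction term of the DESeq2 fit, are listed here with the log2 difference (positive where JQ1 changed the gene more upward with LPS than without). The scaling moved the median of all genes for this term from -0.05 to 0.51 with total-count scaling. The differences called under every scaling were those of Slc2a6 (-1.47), Pfkp (-0.83), Pfkfb2 (1.63), Pfkfb3 (-2.73), Pfkfb4 (1.43) and Rpe (-1.05). Hk2 (-0.65), Hk3 (-0.68), Pgk1 (-0.67), Slc16a3 (-0.64) and Pdk3 (-0.85) kept their sign but not the call with total-count scaling and TPM. Hk1 (-0.47), Pfkl (-0.42), Pdha1 (-0.33) and Pgd (-0.41) turned sign with both, and Pdk1 (-0.55) with total-count scaling. Measured from the median of all genes in each setting, none of these 16 changed sign. The subtraction removes a shift that is nearly the same for all genes, so this is no separate check of the directions.

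For IL-10 the interaction with LPS was called for Slc2a1 (0.61), Pfkfb3 (2.08) and Slc16a3 (0.78), all more upward with LPS than without. Without replicate 1, Slc2a1 and Slc16a3 lost the call and Pfkfb3 was the 1 member left.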

How the results depend on the processing

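Counts of called members stayed within 1.5 times the main count under most settings. By edgeR 30 members were called for LPS, 29 for JQ1 and 0 for IL-10 against Unstimulated, 28 for LPS+JQ1 and 14 for LPS+IL-10 against LPS, and 16 for the interaction of JQ1 with LPS. For LPS+IL-10 against LPS there were 8 with only the groups compared and 6 to 10 with a replicate left out, and for JQ1 against Unstimulated 19 to 21 with a replicate left out. For IL-10 alone the replicate block gave 1. For the interaction of IL-10 with LPS there were 6 with the replicate block, 6 with lane as a covariate, 9 with total-count scaling, 5 with limma on TPM and 1 to 3 with a replicate left out, against 3. Of 182 single calls, the replicate block lost 1, lane 2, edgeR 11, TMM factors 12 and total-count scaling and limma on TPM 30 each, while leaving out replicate 1, 2 or 3 lost 41, 38 and 36. Only total-count scaling and TPM reversed a sign, and all reversed values were called changes under 1 in size. With total-count scaling the reversed log2 values were, for LPS against Unstimulated, Aldoa -0.71, Gapdh -0.55, Ldha -0.32, Pdk3 -0.12, Pdhb -0.42 and Pgd -0.72. For LPS+JQ1 against LPS they were Pdk1 0.15 and Tkt 0.19, for LPS+JQ1 against JQ1 Gapdh -0.12 and Pdhb -0.13, and for the interaction of JQ1 with LPS Hk1 0.082, Pfkl 0.14, Pdk1 0.0051, Pdha1 0.22 and Pgd 0.14. With limma on TPM they were Aldoa -0.56, Gapdh -0.40, Ldha -0.16, Pdhb -0.27 and Pgd -0.58 for LPS against Unstimulated, Pdha1 -0.014 for JQ1 against Unstimulated, Pdk1 0.061 and Tkt 0.12 for LPS+JQ1 against LPS, Gapdh -0.020 and Pdhb -0.025 for LPS+JQ1 against JQ1, and Hk1 0.033, Pfkl 0.11, Pdha1 0.15 and Pgd 0.097 for the interaction of JQ1 with LPS. Measured from each setting's median over all genes, none of the called members changed sign with total-count scaling, and 1 did with TPM, in LPS+JQ1 against JQ1. Total-count scaling, and in large part TPM, shifts all genes of a comparison by nearly the same amount. Subtracting the median removes that shift, so this outcome was nearly fixed beforehand and is no separate check. Family shares taken from expected counts in place of TPM moved by over 1 SD in 100 of 120 values, and in 0 with a replicate left out. Depth limits Slc2a3, Pdk4, Eno3 and, after LPS, Pdk2, which had few counts.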

Other observations

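Genes next to the module in the same pathways (42 listed, 33 tested in the comparisons below) were read against all genes tested. LPS changed 72.7% of them, against 66.3% of all genes, and JQ1 alone 54.5%, against 44.7%. LPS+JQ1 differed from LPS in 60.6%, against 57.6%, and LPS+IL-10 from LPS in 12.1%, against 15.8%. These shares come from the DESeq2 size factors and were not recomputed with other scalings. Gpd2, the mitochondrial glycerol 3-phosphate dehydrogenase that passes glycolytic electrons to the respiratory chain, had 389, 311 and 346 normalised counts at rest and 4693, 4524 and 5511 after LPS (log2 change 3.80). It had 1425, 1373 and 1430 in LPS+JQ1 (-1.80 against LPS) and 6178, 6264 and 7664 in LPS+IL-10 (0.45). Minpp1, a phosphatase that can also act on 2,3-bisphosphoglycerate, rose by 2.24 with LPS. Shpk, the sedoheptulose kinase, fell by 2.78 with LPS.

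Adpgk, an ADP-dependent glucokinase, had 229, 244 and 221 normalised counts at rest and 603, 574 and 565 with JQ1 (log2 change 1.34), and 148, 174 and 167 with LPS against 614, 624 and 564 with LPS+JQ1 (1.88). Its LPS+JQ1 and JQ1 libraries thus overlapped in level, and both lay above all libraries without JQ1. Pcx, pyruvate carboxylase, had 15 to 30 at rest, 59 to 87 with JQ1, 17 to 25 with LPS and 67 to 85 with LPS+JQ1, with changes by JQ1 of 1.65 and 1.90. The neighbouring genes named here are examples, and others also moved far. Txnip had 5513 to 6153 at rest, 22134 to 23143 with JQ1, 2646 to 2749 with LPS and 6396 to 6506 or 6604 with LPS+JQ1. Pdpr had 310 to 344 at rest and 65 to 93 with LPS, and Gpd1 15 to 27 and 4 to 7.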
